A study of Mus musculus with 29 samples.

Results

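The cysteinyl leukotriene receptor gene Cysltr2 and 9 other genes of leukotriene and prostaglandin signalling were followed in RNA-seq of mouse hematopoietic stem cells (HSCs). The 10 genes, of 55376 gene symbols counted, were Cysltr2, Cysltr1, Ltb4r1, Alox5, Alox5ap, Ltc4s, Lta4h, Ptgs1, Ptger3 and Ptger4. They were chosen by name, with earlier results of these data known. Cysltr2 was chosen because its count was lower in the knockout libraries at both ages. Its genotype differences are therefore given below as a description with no test. All 10 passed the filter on low counts.

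HSCs were isolated from young and old wild-type (WT) mice and from young and old mice that carry a knockout (KO) of Gadd45b, a stress-induced gene linked to active DNA demethylation. The knockout is present in the whole animal and not in HSCs alone, and the cells were sorted from bone marrow as lineage-negative Sca-1+ c-Kit+ CD34- Flk2- CD150+ cells. There were 4 libraries of young WT (YWT), 4 of old WT (OWT), 4 of young KO (YKO) and 7 of old KO (OKO). The study's methods list more OWT and YKO samples than were used here. The labels give the ages only as young and old, name no treatment and no strain, and list each library as female, while the study's methods state that both sexes were used. YWT, YKO and OKO replicates 1 to 3 were listed in batch 1 of the study's run list, and OWT and OKO replicates 4 to 7 in batch 2, so that age and batch cannot be told apart in WT. Library totals ran from 22197555 to 77970627 counts with a median of 57562473. The labels do not say that each library came from a separate animal, so the p-values measure the spread between these libraries, which may be partly technical.

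The targeted gene was checked first. Gadd45b, in CPM (counts per 1000000 reads of the library after TMM normalization), ranged from 7.34 to 17.5 in YWT, 10.1 to 15.5 in OWT and 2.84 to 6.94 in OKO. In the libraries labelled YKO it was 12.7, 14.3, 5.98 and 5.14, so that replicates 1 and 2 lay within the YWT range. Comparisons with YKO below therefore refer to the libraries labelled YKO, and a part of the fold changes is also given with replicates 3 and 4 alone. The summed CPM of 9 HSC markers (Procr, Slamf1, Hlf, Mecom, Fgd5, Hoxb5, Kit, Ly6a and Meis1) was 1810 or more in each library, and none of the 9 was at 0 throughout.

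Leukotrienes and prostaglandins are lipid mediators made from arachidonic acid that phospholipases release from membranes. The 5-lipoxygenase Alox5, helped by its activating protein Alox5ap, makes leukotriene A4, which Lta4h turns into leukotriene B4 and Ltc4s into leukotriene C4, the parent of the cysteinyl leukotrienes. Ptgs1 (cyclooxygenase-1) opens the prostaglandin branch, whose product prostaglandin E2 acts on HSCs through receptors such as Ptger3 and Ptger4, and the cysteinyl leukotrienes act through Cysltr1 and Cysltr2, which couple to G proteins.

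Because the study examined DNA methylation beside expression, the promoters of the 2 receptor genes whose levels separated most by age are shown, with each CG dinucleotide, the site of most DNA methylation in mammals, in capitals. Each is the 250 bases before the gene start from RefSeq on build GRCm38.p6, printed 5′ to 3′ on the strand of the gene. Cysltr2 starts on the minus strand of chromosome 14 (chr14:73049115-73049364 for the stretch) and Ptger4 on the minus strand of chromosome 15 (chr15:5244188-5244437).
Cysltr2: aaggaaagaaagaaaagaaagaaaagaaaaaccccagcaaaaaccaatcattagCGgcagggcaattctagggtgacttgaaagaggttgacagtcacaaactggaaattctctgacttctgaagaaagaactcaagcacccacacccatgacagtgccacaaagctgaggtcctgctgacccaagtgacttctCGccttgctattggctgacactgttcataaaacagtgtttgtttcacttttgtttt
Ptger4: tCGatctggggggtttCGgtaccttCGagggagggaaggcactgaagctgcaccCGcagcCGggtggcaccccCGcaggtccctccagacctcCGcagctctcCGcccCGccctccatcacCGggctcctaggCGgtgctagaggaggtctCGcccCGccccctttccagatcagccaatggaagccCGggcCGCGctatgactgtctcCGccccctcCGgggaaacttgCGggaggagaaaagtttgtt
The motif searched was CG, which reads the same on both strands. The Cysltr2 stretch held 2 CG dinucleotides and the Ptger4 stretch 19. Of 32851 promoter stretches of this length, 92.1% held at least 1 and the median number was 6. As many as the Cysltr2 stretch or fewer were found in 29% of them, and as many as the Ptger4 stretch or fewer in 82.1%. Promoter stretches were matched for 8 of the 10 genes. Ltb4r1 and Ltc4s had 3 CG dinucleotides each, Alox5 and Ptgs1 had 5 each, Lta4h had 11 and Ptger3 had 21. Methylation of these bases was not analysed here.

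Levels of the 10 genes were compared with each other only per kilobase of exon (CPM divided by exon length). Averaged over the 19 libraries, Alox5ap had 76.9 CPM per kb ± 23.2 (SD), Ptgs1 37.6 ± 10.3 and Lta4h 27.2 ± 6.08. Ptger4 at 15.1 ± 8.66 and Ptger3 at 14.4 ± 3.26 were close to each other, and Cysltr2 followed at 9.38 ± 6.65. Ltc4s had 2.03 CPM per kb, Alox5 1.51, Ltb4r1 0.647 and Cysltr1 0.0516. Neighbours in this order overlapped over libraries, while Alox5ap and Cysltr1, at its ends, did not. Per kilobase, mRNA of the helper protein Alox5ap was above that of the enzyme Alox5 in each library, and Cysltr2, unlike Cysltr1, had reads in each library.

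**Figure D1:**
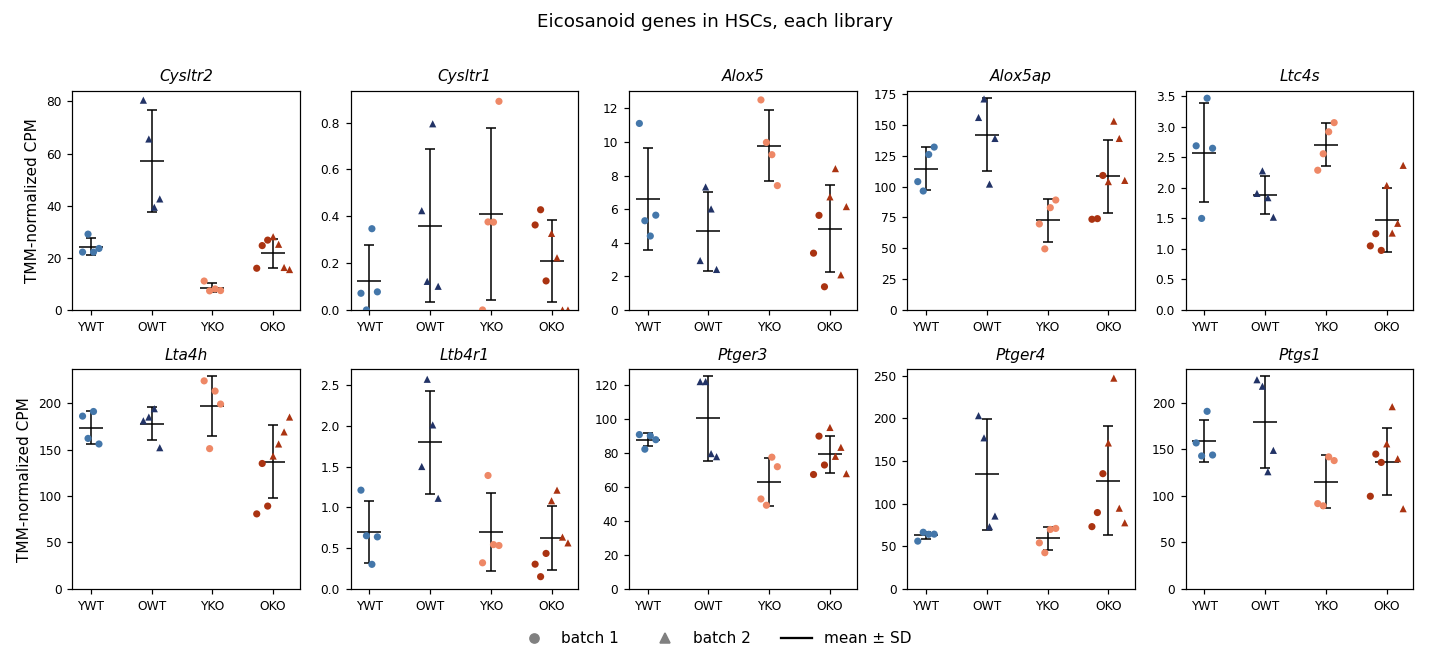
Expression of the 10 genes in each library as TMM-normalized CPM (y axis, from 0, with its own scale in each panel) in YWT, OWT, YKO and OKO. Circles are batch 1, triangles batch 2, and bars the mean ± SD; the 4 YKO libraries lie lowest for Cysltr2 (7.32 to 11.1 CPM) and the 4 OWT libraries highest (39.4 to 80.5 CPM).

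Cysltr2, the receptor for leukotrienes C4 and D4 (GENCODE M21 on mm10, chromosome 14, 73025603 to 73049114), was lowest in YKO, intermediate in YWT and OKO and highest in OWT. In YWT the 4 libraries had 22.2, 29.1, 22.2 and 23.6 CPM, a mean of 24.3 ± 3.29 (SD, n = 4). The libraries labelled YKO had 11.1, 7.32, 8.07 and 7.44 CPM, a mean of 8.47 ± 1.76 (n = 4). These groups did not overlap. OWT had 80.5, 65.6, 39.4 and 42.6 CPM, a mean of 57 ± 19.5 (n = 4), and the 7 OKO libraries ran from 15.5 through a median of 24.7 to 28.1 CPM, a mean of 21.8 ± 5.61 (n = 7). Each OKO library was below each OWT library and above each YKO library, and the OKO and YWT ranges overlapped. Of all genes tested, 3.01% had each YKO library below each YWT library and 0.359% had each OKO library below each OWT library.

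The fitted genotype differences of Cysltr2, which chose the gene and carry no test, were a log2 fold change of -1.52 (SE 0.26) for YKO vs YWT and of -1.39 (SE 0.22) for OKO vs OWT. With YKO replicates 3 and 4 alone the first was -1.67. The OKO vs OWT value was -1.39 with the OKO libraries of batch 2 alone, the batch that holds OWT, and -1.3 with those of batch 1. The difference between these genotype effects was 0.13 (SE 0.34) on the log2 scale.

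The age comparisons of Cysltr2 were not themselves used to choose it, but they use the same libraries. Low KO values at both ages chose the gene, so the age tests are not independent of that choice. A gene was called at a Benjamini-Hochberg adjusted p under 0.05 over the 33690 genes tested, by the quasi-likelihood test of edgeR, and a fold change over 1.5. In KO HSCs, Cysltr2 rose with age, with a log2 fold change of 1.37 (SE 0.24, 2.58-fold, adjusted p = 0.00575 by edgeR), higher in 7 of 7 OKO libraries than in any YKO library. It was the 1 gene of the 10 called in OKO vs YKO, a comparison in which 1.29% of all genes were called. The value was 1.48 (adjusted p = 0.00252 by edgeR) within batch 1, where the 3 OKO libraries were set against YKO. With YKO replicates 3 and 4 alone the log2 fold change was 1.51 and the adjusted p by edgeR was 0.125, so the call was lost. Over all alternatives, DESeq2 included, the adjusted p ran from 1.17e-07 to 0.125. In WT HSCs the log2 fold change of OWT vs YWT was 1.23 (SE 0.26, 2.35-fold), with all 4 OWT libraries above all YWT libraries, and it did not pass by edgeR (adjusted p = 0.157). DESeq2 called it (1.19, adjusted p = 0.00126 over the genes DESeq2 kept), and 0.725% of those genes were called there. Over the alternatives the adjusted p ran from 0.00126 to 0.558. None of the 10 genes was called in OWT vs YWT by edgeR, where 0.00297% of all genes were called, and age and batch cannot be told apart in it. Over all tested genes 1476 had an unadjusted p under 0.05 in OWT vs YWT by edgeR, 4.38%, and 3 of the 10 did (Cysltr2, Ptger4 and Ltb4r1). In OKO vs YKO 15.8% of all genes were under that level. Of the 10 genes, 3 were higher (Cysltr2, Ptger4 and Alox5ap) and 3 lower (Alox5, Ltc4s and Lta4h) in OKO at that level.

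Markers of HSCs moved in the same directions as Cysltr2. All 9 had positive log2 fold changes in OWT vs YWT (median 0.48) and 8 of 9 in OKO vs YKO (median 0.52), while 8 of 9 were negative in YKO vs YWT (median -0.53) and 9 of 9 in OKO vs OWT (median -0.36), and none of these passed the test by edgeR. Their summed CPM ranged from 2100 to 2750 in YWT, 2540 to 3670 in OWT, 1810 to 2290 in YKO and 1880 to 3280 in OKO. Erythroid and T cell markers were higher in the libraries labelled YKO. The summed CPM of 7 erythroid markers was 1580 to 4490 in YKO and 647 to 2110 in YWT, that of 6 T cell markers 24.8 to 113 in YKO and 16.7 to 26 in YWT, and that of 7 B cell markers 190 to 1450 in YKO, 210 to 642 in YWT and 27.3 to 195 in OKO. The B and T cell values were highest in YKO replicates 1 and 2, the libraries with Gadd45b in the YWT range, with 113 and 78.3 CPM of T cell markers and 789 and 1450 of B cell markers. YKO replicates 3 and 4 had 32.2 and 24.8 CPM of T cell markers and 239 and 190 of B cell markers, while the erythroid sum was 4030, 1580, 4490 and 4420 CPM in YKO replicates 1 to 4. In OKO vs YKO 5 of the 7 B cell markers, 3 of 7 monocyte and macrophage markers, 2 of the 7 erythroid markers and 2 of the 6 T cell markers were called lower by edgeR. In bulk samples fewer cells of a type and less RNA per cell cannot be told apart, and the part of these markers in the results was not tested.

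Cysltr2 was also set against the HSC markers, on a scale added after the data were seen. Per 1000 CPM of the summed HSC markers it was 10.1 ± 1.37 (SD) in YWT, 18 ± 3.1 in OWT, 4.13 ± 1.05 in YKO and 8.99 ± 2.04 in OKO. In the age comparisons, OKO libraries had 6.54 to 11.8 and YKO libraries 3.25 to 5.63, and OWT libraries had 15.6 to 22.4 and YWT libraries 8.09 to 11.2, without overlap. The log2 ratio of group means on this scale was 0.84 for OWT vs YWT and 1.12 for OKO vs YKO. The genotype ratios, -1.28 for YKO vs YWT and -1 for OKO vs OWT, describe the values that chose the gene. Kit was the largest of the 9 markers in the sum, with means of 1050 CPM in YWT, 1200 in OWT, 1110 in YKO and 979 in OKO. Its mean was higher in YKO than in YWT and lower in OKO than in YKO, against the direction of most of the 9. The scale thus leans on 1 gene and is not a measure of HSC content.

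**Figure D2:**
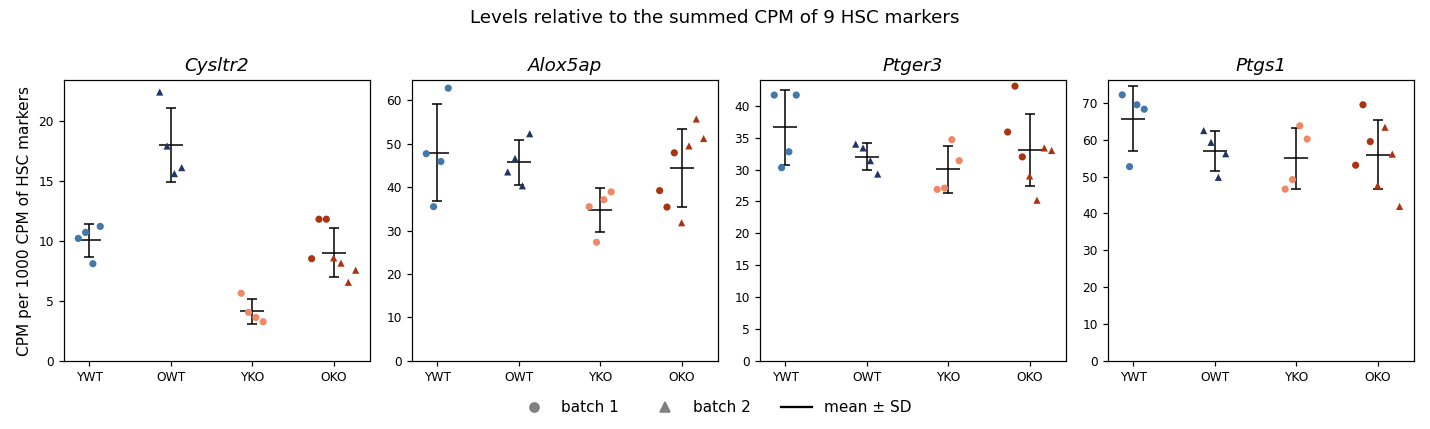
Cysltr2, Alox5ap, Ptger3 and Ptgs1 in each library as CPM per 1000 CPM of the summed 9 HSC markers (y axis, from 0) in the 4 groups, with circles for batch 1, triangles for batch 2 and bars for the mean ± SD. For Cysltr2 the OKO libraries (6.54 to 11.8) lie above YKO (3.25 to 5.63) and the OWT libraries (15.6 to 22.4) above YWT (8.09 to 11.2).

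The other cysteinyl leukotriene receptor, Cysltr1 (chromosome X, 106574346 to 106603679), was close to the detection limit, with 0 to 52 reads per library and 0 reads in 4 libraries. A count of 0 allows up to 0.0559 to 0.16 CPM in those libraries, taking 3 counts as the limit, for counting error only. Its groups overlapped in each comparison and no difference was detectable at this depth, with a log2 fold change of 1.72 (SE 1.24) for YKO vs YWT and of -0.77 (SE 1.04) for OKO vs OWT. With YKO replicates 3 and 4 alone the YKO vs YWT value was 2.29 (SE 1.34). The OKO vs YKO value went from -1 (SE 1.04) to -1.56 (SE 1.18).

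Ltb4r1, the high-affinity leukotriene B4 receptor (chromosome 14, 55765962 to 55768494), had 6 to 169 reads per library. OWT had 1.5, 2.57, 2.01 and 1.11 CPM, above most libraries of the other groups, whose means ran from 0.624 to 0.7 CPM. The log2 fold change was 1.36 (SE 0.61) for OWT vs YWT and -1.52 (SE 0.52) for OKO vs OWT, and neither passed by edgeR (adjusted p = 1 and 0.592). OKO libraries of batch 1 had 0.149 to 0.434 CPM and those of batch 2 had 0.563 to 1.21 CPM, without overlap, and the OKO vs OWT value was -1.01 within batch 2. Neutrophil markers were also high in OWT, with a summed CPM of 305 to 594 against 77 to 250 in YWT and 29.8 to 331 in OKO, and their part in the Ltb4r1 difference was not tested.

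Among the genes of leukotriene synthesis, the helper Alox5ap differed in sign from the enzymes Alox5, Ltc4s and Lta4h in 2 comparisons. In OKO vs YKO the enzymes had log2 fold changes of -1.02, -0.87 and -0.52, and Alox5ap 0.57. In YKO vs YWT the enzymes had 0.56, 0.07 and 0.18, and Alox5ap -0.65. The signs of the enzymes were mixed in OWT vs YWT and OKO vs OWT. None of these values passed by edgeR with all libraries. Alox5ap, which presents arachidonic acid to 5-lipoxygenase (chromosome 5, 149264767 to 149288153), had 104, 96.4, 126 and 132 CPM in YWT and 69.7, 49.5, 82.9 and 89.1 CPM in YKO. The YKO libraries were all below the YWT libraries, yet the log2 fold change of -0.65 (SE 0.25) did not pass by edgeR (adjusted p = 0.872). OWT had 142 ± 29.6 CPM and OKO 108 ± 30, with a log2 fold change of 0.57 (SE 0.23) for OKO vs YKO that did not pass by edgeR (adjusted p = 0.211) and was called by DESeq2 (0.63, adjusted p = 0.0362), where 9.32% of the genes kept were called. Over the alternatives this adjusted p ran from 0.00866 to 0.486. With YKO replicates 3 and 4 alone the Alox5ap values were -0.44 for YKO vs YWT and 0.36 for OKO vs YKO. In the annotation Alox5ap shares 13.3% of its exon bases with the antisense gene Gm19719, and whether counting used strand is not given in the sources used here.

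Alox5 (chromosome 6, 116410077 to 116461178) had 12.5, 9.97, 9.24 and 7.4 CPM in YKO, a mean of 9.78 ± 2.12, and 1.38 through a median of 5.63 to 8.41 CPM in OKO. Of the OKO libraries 6 of 7 were below all YKO libraries, and the log2 fold change of -1.02 (SE 0.4) did not pass by edgeR (adjusted p = 0.215). Within batch 1, which holds YKO, it was -1.43 and was called by edgeR (adjusted p = 0.0414, with 0.0414 to 0.536 over the alternatives). With all 7 OKO libraries against YKO replicates 3 and 4 it was -0.77. YWT at 6.61 ± 3.05 CPM and OWT at 4.67 ± 2.37 CPM overlapped. Thus Alox5 and Alox5ap had fitted values of opposite sign in OKO vs YKO and also in YKO vs YWT, where Alox5 was 0.56 (SE 0.47, and 0.31 with YKO replicates 3 and 4 alone) and did not pass.

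Ltc4s, leukotriene C4 synthase (chromosome 11, 50236461 to 50238616), had 2.29, 2.56, 2.92 and 3.07 CPM in YKO and 0.976 through a median of 1.26 to 2.37 CPM in OKO. The log2 fold change of OKO vs YKO was -0.87 (SE 0.31, adjusted p = 0.159 by edgeR), lower in 6 of 7 OKO libraries, and DESeq2 called it (-0.83, adjusted p = 0.0385, with 0.0164 to 0.497 over the alternatives). It was -1.25 within batch 1, where edgeR called it (adjusted p = 0.0232), and -1 for all 7 OKO libraries against YKO replicates 3 and 4. YWT had 2.57 ± 0.813 CPM and OWT 1.89 ± 0.311 CPM. Ltc4s shares 26.4% of its exon bases with the antisense gene Gm26542. Of the cells known for leukotriene C4 synthesis, mast cells and basophils were tracked by 7 markers, with a summed CPM of 5.28 to 9.16 in YKO and 3.34 to 10.4 in OKO, and eosinophils by 4 markers, with 8.64 to 124 in YKO and 1.53 to 43.8 in OKO. The eosinophil sum was 124 and 98.5 CPM in YKO replicates 1 and 2, and 9.28 and 8.64 CPM in replicates 3 and 4. Of the 4 markers Prg2 had the highest mean in YKO, 52.9 CPM, followed by Siglecf with 6.43 CPM. The part of these cell types in the Ltc4s difference was not tested.

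Lta4h, leukotriene A4 hydrolase (chromosome 10, 93453411 to 93484875), was at a similar level in YWT (174 ± 17.6 CPM), OWT (178 ± 18.4) and YKO (197 ± 31.9), and at 137 ± 39.2 CPM in OKO. The OKO libraries of batch 1 had 80.7, 135 and 89.1 CPM and those of batch 2 had 143, 156, 169 and 185 CPM. After TMM scaling the OKO libraries thus split by batch. The TMM factor of the library total was 1.826, 1.244 and 1.413 in OKO replicates 1 to 3. In OKO replicates 4 to 7 it was 1.024, 0.858, 0.988 and 0.793. CPM values of all 10 genes and the fits within batch 1 depend on these factors, and their part in the split was not tested. For Lta4h the log2 fold change of OKO vs YKO was -0.52 (SE 0.21) and did not pass by edgeR (adjusted p = 0.215). Within batch 1 it was -0.89 and was called by edgeR (adjusted p = 0.00856, with 0.0053 to 0.594 over the alternatives). With all 7 OKO libraries against YKO replicates 3 and 4 it was -0.57. Against OWT of the same batch 2, the OKO difference was -0.09.

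Of the 3 prostanoid genes among the 10, Ptger4, a prostaglandin E2 receptor that raises cyclic AMP (chromosome 15, 5206661 to 5244187), differed most by age. YWT had 55.9, 66.3, 63.9 and 64.1 CPM and OWT 203, 177, 72.8 and 85.3 CPM. YKO had 53.9, 42.3, 69.6 and 70.8 CPM, and OKO ran from 72.9 through a median of 94.5 to 247 CPM. All old libraries were above all young libraries of the same genotype, and the old groups spread widely. The log2 fold change was 1.1 (SE 0.36, adjusted p = 0.701) for OWT vs YWT and 1.1 (SE 0.33, adjusted p = 0.102) for OKO vs YKO, and neither passed by edgeR, while DESeq2 called the second (1.15, adjusted p = 0.0048). Without OKO replicate 7 the edgeR call in OKO vs YKO was made (1.19, adjusted p = 0.0388), and over the alternatives, DESeq2 included, the adjusted p ran from 0.0048 to 0.322. It was 0.87 for all 7 OKO libraries against YKO replicates 3 and 4. Of the 9 genes other than Cysltr2, only Ptger4 had each OKO library above each YKO library, a pattern found in 1.12% of all genes. Only Ptger4 of these 9 had each OWT library above each YWT library, against 2.24% of all genes. Cysltr2 had both patterns too, but low KO values chose it, so it is left out of these counts. Per 1000 CPM of HSC markers Ptger4 was 37.7 to 79.7 in OKO and 23.3 to 31.1 in YKO, and overlapped between OWT (28.7 to 56.3) and YWT (23.3 to 30.5). Ptger4 shares 15.3% of its exon bases with the pseudogene Gm15937 on the opposite strand.

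Ptger3, a prostaglandin E2 receptor that lowers cyclic AMP (chromosome 3, 157566892 to 157645888), had 90.8, 82.2, 90.1 and 87.8 CPM in YWT and 52.9, 49.2, 77.5 and 71.9 CPM in YKO. Ptgs1 (chromosome 2, 36230426 to 36252272) had 157, 143, 191 and 144 CPM in YWT and 91.7, 89.3, 142 and 138 CPM in YKO. For both genes the YKO libraries were all below the YWT libraries, for Ptgs1 narrowly, with 142 CPM in the highest YKO library and 143 in the lowest YWT library. The log2 fold change was -0.48 (SE 0.21, adjusted p = 0.978) for Ptger3 and -0.46 (SE 0.26, adjusted p = 1) for Ptgs1, and neither passed by edgeR. With YKO replicates 3 and 4 alone the values were -0.25 and -0.2. OWT (101 ± 25.3 and 180 ± 49.3 CPM) and OKO (79.2 ± 10.8 and 137 ± 36.4 CPM) overlapped for both genes.

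Apart from Cysltr2, 3 genes (Alox5ap, Ptger3 and Ptgs1) had YKO libraries all below YWT, a pattern found in 3.01% of all genes tested. Set against the HSC markers, these 3 overlapped between YKO and YWT. Their log2 ratios of group means on that scale remained negative, at -0.47, -0.29 and -0.26 in the same order. None of the 9 genes other than Cysltr2 was called in YKO vs YWT by edgeR, where 0.0267% of all genes were called and 4.59% (1548) had an unadjusted p under 0.05, Alox5ap and Ptger3 among them. None was called in OKO vs OWT either, where 0.0327% were called and 8.14% (2741) had an unadjusted p under 0.05, Ltb4r1 among them. DESeq2, which called 0.703% and 0.229% of the genes it kept, called none of the 9 in either comparison. In OKO vs OWT 8 of these 9 genes had negative log2 fold changes, with a median of -0.38 beside 0.12 over all genes, although Ptger4 (-0.08) turned to 0.04 under the RLE scaling and in DESeq2. Medians there were also negative for the pathway list described below (-0.21, with 31 of 49 negative) and for the HSC markers (-0.36). A negative median was thus not particular to these genes. With the OKO libraries of batch 2 alone, the batch of OWT, 7 of the 9 were negative, with a median of -0.15, and with those of batch 1 all 9 were, with a median of -0.46. In YKO vs YWT 4 of 9 were negative, with a median of 0.01 beside -0.02. The interaction of genotype and age was called for none of the 9 by edgeR and for none (0%) of 33690 genes, of which 1556 (4.62%) had an unadjusted p under 0.05. DESeq2 called 6 genes for it (0.0334%).

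**Figure D3:**
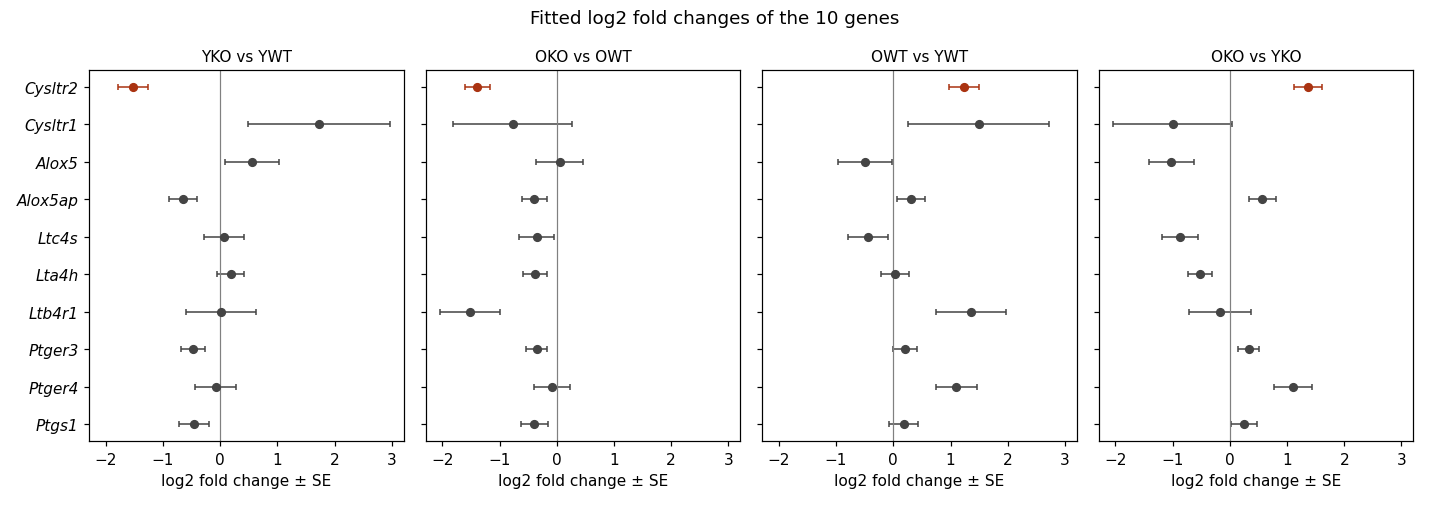
Fitted log2 fold changes with their SE (x axis, log2 scale) of the 10 genes (y axis) in the 4 comparisons, with Cysltr2 in red. Cysltr2 lies at -1.52 and -1.39 in the genotype comparisons, which chose it, and at 1.23 and 1.37 in the age comparisons.

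Other genes of the pathway were taken from a list of 50 genes, of which 49 passed the filter. By edgeR none was called in OWT vs YWT, YKO vs YWT or OKO vs OWT, with 3, 2 and 5 of them at an unadjusted p under 0.05, and 1 of 49 was called in OKO vs YKO, where 17 had an unadjusted p under 0.05, beside 15.8% of all genes. The gene called was Ptgr1, prostaglandin reductase 1, which inactivates leukotriene B4 and prostaglandin metabolites. It fell from 16.9 ± 3.92 CPM in YKO to 6.13 ± 2.84 CPM in OKO, a log2 fold change of -1.46 (SE 0.32, adjusted p = 0.0269 by edgeR), lower in 7 of 7 OKO libraries than in any YKO library. The call was lost in the fit of the compared groups alone, without YKO replicate 1 or 3, and with YKO replicates 3 and 4 alone. By DESeq2 12 of the list were called in OKO vs YKO, 8 higher and 4 lower, beside 9.32% of all genes DESeq2 kept. The median log2 fold change of the list was 0.18 in OKO vs YKO beside 0.23 over all genes, and 0.07 in OWT vs YWT beside -0.05.

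The gene of each group of the list with the highest mean CPM over the 19 libraries, not corrected for length, is given here. Tbxas1, thromboxane A synthase, had 270 CPM, Abcc1, a transporter that exports leukotriene C4, had 139 CPM, and Pla2g4a, the cytosolic phospholipase A2 that releases arachidonic acid, had 105 CPM. Ptger1, another prostaglandin E2 receptor, had 94.6 CPM, Ptgr2 had 77.2 CPM, and Gnas, the stimulatory G protein subunit, had 812 CPM. Alox12, a 12-lipoxygenase, had 4.48 CPM and Ltb4r2, the low-affinity leukotriene B4 receptor, 1.9 CPM. Per kilobase of exon other genes led 4 of the groups, namely Ptges3 (99.2 CPM per kb, Tbxas1 29.7), Mgst3 (17.3, Abcc1 9.21), Tbxa2r (25, Ptger1 17.3) and Gnai2 (169, Gnas 72.6). Tbxas1 was lower in all YKO libraries than in YWT (181 ± 45.5 against 257 ± 22.3 CPM) and higher in OWT (346 ± 59.1 CPM), with log2 fold changes of -0.5 (SE 0.25) and 0.43 (SE 0.25) that did not pass. Pla2g4a was at 74.2 ± 18.7 CPM in YKO and 106 ± 18.5 CPM in YWT, with -0.52 (SE 0.22), which did not pass by edgeR (adjusted p = 0.954).

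Outside the naming rule, and singled out after their values were seen, 3 genes of prostaglandin synthesis and transport were higher in all OWT libraries than in YWT, a pattern found in 2.24% of all genes. Ptges, the inducible prostaglandin E synthase, had 9.61 ± 2.02 CPM in YWT and 23.4 ± 8.96 CPM in OWT (log2 fold change 1.28, SE 0.38), and Slco2a1, a prostaglandin transporter, had 4.69 ± 1.01 and 10.7 ± 3.44 CPM (1.19, SE 0.36). Ptgs2, cyclooxygenase-2, had 0.258 ± 0.229 and 1.1 ± 0.368 CPM (2.09, SE 0.69), with 4 to 32 reads per YWT library. None of the 3 passed by edgeR (adjusted p = 0.537, 0.583 and 0.714). Other genes of their groups went the other way in OWT vs YWT. Log2 fold changes were negative for 4 of 10 tested genes of prostanoid synthesis and 3 of 5 of prostanoid breakdown and transport. In OKO vs YKO, Ptges had 1.4 (SE 0.35, adjusted p = 0.0526 by edgeR), higher in 6 of 7 OKO libraries than in any YKO library.

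**Figure D4:**
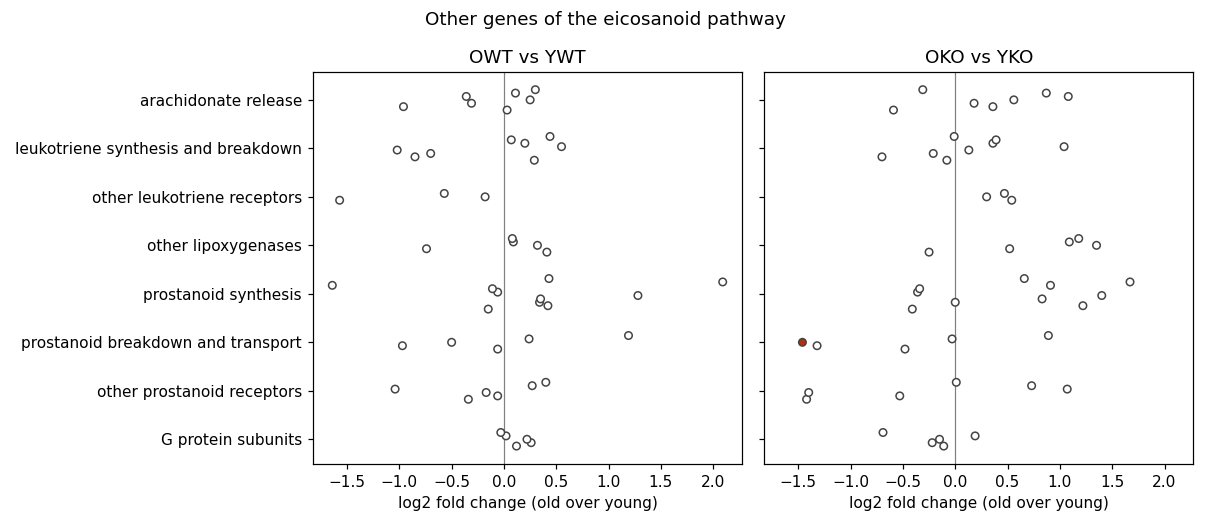
Log2 fold change of old over young (x axis, log2 scale) for each tested gene of the pathway list, grouped by role (y axis), in WT (left) and KO HSCs (right). The filled point is Ptgr1 at -1.46 in OKO vs YKO, the gene called by edgeR, and open points were not called.

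The genes whose levels over the 19 libraries were most like those of Cysltr2 were sought among 11247 genes by Pearson correlation of log2(CPM + 1), as a description. They were Meis3, a homeobox gene (r = 0.91), Efcab14 (0.88), Gm17509 (0.88), Reck, a membrane inhibitor of metalloproteinases (0.87), and Apoe, the lipid carrier apolipoprotein E (0.85). With group means removed the values were 0.58, 0.67, 0.55, 0.8 and 0.54, in the same order. All points share the 4 groups and the batches. Meis3 had 10.8 ± 3.35 CPM in YWT, 19.1 ± 4.13 in OWT, 3.76 ± 0.901 in YKO and 10.7 ± 3.57 in OKO, the same order of extremes as Cysltr2. Among the 10 genes themselves, Cysltr2 had r = 0.77 with Ptger3, 0.72 with Alox5ap, 0.67 with Ptgs1 and 0.63 with Ptger4, and 0.5, 0.23, 0.56 and 0.75 with group means removed.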

How the data were processed

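The 19 RNA-seq libraries of sorted mouse HSCs were used, and whole genome bisulfite sequencing was not analysed here. Reads were trimmed by the authors with Trim Galore 0.4.3 and cutadapt and mapped with STAR (mm10, index from GENCODE M22), and the authors deposited the raw featureCounts count of each gene symbol. Libraries were made with the SMART-Seq v4 kit, and the use of strand and of read mates in counting is not given in the sources used here, so genes that overlap carry extra uncertainty.

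Groups come from the labels. Counts were filtered with filterByExpr (33690 of 55376 symbols kept), normalized by TMM and fitted with the edgeR 4.0.16 quasi-likelihood test in R 4.3.3, with all 19 libraries in 1 fit of 4 group means, without a covariate. The study's methods refer to a script named for RUV, an adjustment for unwanted variation, and for pairwise fits, which was not used here. P-values were adjusted by Benjamini-Hochberg over all tested genes, and calls needed an adjusted p under 0.05 together with a change of more than 1.5-fold, the thresholds of the study. DESeq2 1.42.0, the tool the study names, was run as an alternative, and genes it left without an adjusted p count as not kept. CPM values are TMM-normalized, and 1 was added before logarithms for correlations. The script was tested on simulated data. No 2 libraries of a group agreed within sampling noise. The alternatives were RLE scaling, other filters on low counts, the compared groups alone, batch, sex or replicate number in the fit, the OKO libraries of 1 batch, each library left out, and the adjusted p without the fold threshold. The fits with YKO replicates 3 and 4 alone and the scaling by HSC markers were added after the data were seen.

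The 10 genes, the pathway list and the marker lists were chosen with earlier results of these data known, and 1 marker of the HSC list is not reported here. Named genes were all 10, each gene of the pathway list called by edgeR, the gene of highest mean CPM in each of its groups, and the 5 genes most correlated with Cysltr2 among those whose log2 CPM averaged 3 or more. Gene positions are from GENCODE M21 and promoters from the RefSeq table of GRCm38.p6, the same build as mm10.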

Additional observations from a re-analysis of the deposited data

How the results depend on the processing

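The direction of Cysltr2 was the same under all alternatives in all 4 comparisons. In OWT vs YWT it ran from 1.03 to 1.37, and DESeq2 (1.19) called it. In OKO vs YKO it ran from 1.3 to 1.61 and lost its call with YKO replicates 3 and 4 alone (1.51). The number of the 10 genes called in OWT vs YWT went from 0 to 1 by DESeq2. In OKO vs YKO it went from 1 to 4 by DESeq2, with batch as a covariate and with the OKO libraries of batch 1, to 3 under the filter at CPM 5, and to 0 with YKO replicates 3 and 4 alone; with 1 library left out it ran from 1 to 3, the highest without OKO replicate 7. In OKO vs OWT, 2 of the 9 genes other than Cysltr2 (Lta4h and Ltb4r1) were called with the OKO libraries of batch 1, which differ from OWT in batch. Of the pathway list, 1 gene was called in OKO vs YKO, against 12 by DESeq2, 2 with RLE scaling, with no filter or with the OKO libraries of batch 2, 6 under the filter at CPM 5, 15 with batch as a covariate, 16 with the OKO libraries of batch 1, and 0 with the compared groups only or YKO replicates 3 and 4 alone. With 1 library left out it ran from 0 (without YKO replicate 1 or 3) to 6 (without OKO replicate 7). In OKO vs OWT 13 of the list were called with the OKO libraries of batch 1 and 0 otherwise. Shares of all genes called under the alternatives, other than DESeq2, are not given here. Counts under these alternatives therefore cannot be read as particular to the 10 genes or the list, and the causes were not tested.

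With the replicate number as a block, 9 genes of the pathway list were called in OKO vs YKO, Cysltr2 kept its call there (1.52), and no other call changed. Samples of the same number correlated between -0.45 and 0.277 in their deviations from the group means, not above 0.1 in every pair. They were treated as unpaired, although this check cannot show that they share nothing but a number.

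The values that changed sign had not been called. With batch as a covariate OWT vs YWT became -0.24 for Alox5ap, -0.65 for Lta4h, -0.19 for Ltb4r1 and -0.01 for Ptgs1, and OKO vs OWT became 0.14 for Ptger4. Ptger4 in OKO vs OWT was 0.04 by DESeq2 and with RLE scaling, 0.17 under the filter at CPM 5, 0.01 in the compared groups only, 0.16 with the OKO libraries of batch 2, and -0.33 to 0.21 with 1 library left out. Alox5 in OKO vs OWT was -0.4 with the OKO libraries of batch 1, -0.17 with the replicate block and -0.14 to 0.34 with 1 library left out, and Cysltr1 there was 0.21 with the block. Lta4h in OWT vs YWT was -0.02 under the filter at CPM 5 and -0.02 to 0.09 with 1 library left out. Ltb4r1 in YKO vs YWT was -0.02 with no filter, -0.01 with sex as a covariate, -0.05 with the block, -0.4 with YKO replicates 3 and 4 alone and -0.56 to 0.37 with 1 library left out, and in OKO vs YKO it was 0.34 with the OKO libraries of batch 2, 0.24 with YKO replicates 3 and 4 alone and -0.42 to 0.43 with 1 library left out. With YKO replicates 3 and 4 alone Ptger4 in YKO vs YWT was 0.14 and Ptgs1 in OKO vs YKO was -0.01. With 1 library left out Ltc4s in YKO vs YWT ran from -0.14 to 0.23 and Ptger4 there from -0.21 to 0.05. RLE scaling moved the median of all genes by 0.12 in OKO vs OWT, and the filter at CPM 5 (kept genes average that level or more) by 0.21 and 0.23 in OKO vs YKO and OKO vs OWT. Cysltr1 and Ltb4r1 are limited by their read counts, and WT age by the batch.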
